A study of Mus musculus with 4 samples.

Results

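The miR-106b-25 and miR-106a-363 clusters are paralogs of the miR-17 cluster (miR-17 to miR-92a), and their microRNAs were read here in whole mouse embryos with and without ER-alpha, the estrogen receptor that Esr1 encodes. All assays named for miR-25, miR-93, miR-106a, miR-106b, miR-18b, miR-20b or miR-363 were taken, whatever their arm or species prefix, which gave 8 of the 380 assays read in every sample. Total RNA came from whole C57BL/6 embryos at E18.5, with 2 samples labelled wild-type and 2 labelled ER-alpha KO. Each TaqMan real-time PCR well gave a threshold cycle (Ct), the cycle at which the product becomes visible; the earlier it is, the more template was present, and 1 cycle corresponds to about 1 log2 unit. How the knockout was made, whether embryos were pooled, and their sex and litter are not in the labels. The p-values therefore cover only the spread seen among these 4 samples, which can be partly technical. In a whole embryo, fewer cells of a type and less RNA per cell cannot be told apart.

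These microRNAs arose by duplication of 1 ancestral cluster and are known for promoting proliferation and survival, with transcripts of cell-cycle inhibitors and pro-apoptotic proteins among their targets. A microRNA recognises its targets mainly through its seed, bases 2 to 8 from the 5′ end, so members with a shared seed can act on shared targets. The miR-106b-25 hairpins lie in an intron of Mcm7, which encodes a subunit of the replicative helicase, and the cluster is known to act together with miR-17 in embryonic development. The miR-106a-363 cluster lies on the X chromosome.

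RefSeq places the 3 hairpins of the first cluster at chr5:138165321-138165818 on the minus strand (GRCm38.p6), inside Mcm7 at chr5:138164583-138172111. The 6 hairpins of the second cluster stand at chrX:52741693-52742567, also on the minus strand, and no gene of the annotation contains them whole. In the direction of transcription the first cluster reads miR-106b, miR-93 and miR-25, and the second miR-106a, miR-18b, miR-20b, a second copy of miR-19b, a second copy of miR-92a, and miR-363. The mature sequences of miR-19b-3p and miR-92a-3p are identical to those of the miR-17 cluster, so their assays cannot tell the clusters apart, and they are counted below among the related microRNAs. All 8 assays were matched to a mature sequence by name. Assay names without an arm were matched to the arm for which that name was in use, and the rat-named miR-20b-3p assay to the mouse sequence of that name.

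The mature sequences from RefSeq, 5′ to 3′ with the seed in capitals, show which members share a seed and where near-identical members differ. The first 4 share the seed AAAGUGC, the next pair the seed AUUGCAC, and miR-18b and the passenger arm of miR-20b have seeds of their own among the members.
miR-106b-5p: uAAAGUGCugacagugcagau
miR-93-5p: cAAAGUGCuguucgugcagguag
miR-106a-5p: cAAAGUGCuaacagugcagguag
miR-20b-5p: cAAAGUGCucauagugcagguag
miR-25-3p: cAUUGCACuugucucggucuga
miR-363-3p: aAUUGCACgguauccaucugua
miR-18b-5p: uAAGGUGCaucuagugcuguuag
miR-20b-3p: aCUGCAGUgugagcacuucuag

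The counterparts in the miR-17 cluster carry the same 3 main seeds and are shown because the assays of such similar sequences are compared below.
miR-17-5p: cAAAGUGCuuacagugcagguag
miR-20a-5p: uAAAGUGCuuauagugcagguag
miR-18a-5p: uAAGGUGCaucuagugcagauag
miR-92a-3p: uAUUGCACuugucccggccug

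Aligned at the 5′ end and counted from it, miR-106a-5p differs from miR-17-5p by 1 of 23 bases (U10A, with the miR-17 base first). The change lies outside the seed. From miR-20a-5p to miR-20b-5p there are 2 changes (U1C and U10C), and from miR-18a-5p to miR-18b-5p also 2 (A18U and A20U). Within the X-linked cluster, miR-106a-5p and miR-20b-5p differ by A10C and C12U. The autosomal members are less alike: miR-106b-5p and miR-93-5p differ at 5 of 21 compared bases (U1C, A11U, C12U, A13C and A20G). From miR-92a-3p to miR-25-3p there are 3 changes in 21 bases (U1C, C14U and C18U), while miR-363-3p differs from miR-92a-3p at 11 of 21. Among these 3 sequences with the AUUGCAC seed, miR-363-3p was the least similar to the other two.

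At a Ct of 35 or lower, 254 to 290 of the 375 microRNA assays were detected in a sample, and 229 were detected in all 4 and tested. Wild-type replicate 1 stood apart from the others. It had the most detected microRNA assays (290, against 254 to 260), although its median Ct over the tested microRNAs was the latest (29.2, against 27.4 to 28.2). After a constant of 0.273 is subtracted, 89.9% of its amplified microRNA wells are within 0.1 of a whole number of cycles, against 21.0% to 26.5% in the other samples. Its Ct values also had lower correlations with the other samples over the 229 assays (0.939 to 0.954, against 0.978 to 0.989 among the others; assays are not independent replicates). Fold changes are therefore given with and without that sample, as are the ranks and within-sample gaps summed up below. Muscle, liver, neuronal, endothelial and epithelial marker microRNAs were all detected in all samples, as labelled for a whole embryo, and 0 of 11 pluripotency markers were, although 5 were detected in at least 1 sample.

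Of the 8 assays, 5 were detected in all 4 samples, 1 in a single sample and 2 in none. Assay names carry the prefix mmu for mouse or rno for rat, given at first use and then left out, and paired values give replicate 1 first. All 3 members of miR-106b-25 were detected throughout, but of the miR-106a-363 assays chosen by name only miR-106a and miR-20b were. The assays of miR-19b and miR-92a, which both this cluster and the miR-17 cluster encode, were also detected in all 4 samples. The Ct of mmu-miR-106a, the first hairpin of the X-linked cluster, was 24.2 in wild-type replicate 1, 22.3 in wild-type replicate 2 and 22.4 in both ER-alpha knockout samples. For mmu-miR-93, the middle hairpin of the Mcm7 cluster, it was 27.2 and 24.5 in wild-type and 24.9 and 25.1 in knockout samples. Its neighbour mmu-miR-106b came up at 28.3 and 26.2 in wild-type and 26.4 and 26.5 in knockout samples. In each case wild-type replicate 1 was the late sample and the other 3 lay closer to each other than to it.

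The later pair behaved alike. The Ct of mmu-miR-20b was 30.2 and 27.9 in wild-type and 28.2 and 28.1 in knockout samples. That of mmu-miR-25, the last hairpin of its cluster and the one with the AUUGCAC seed, was 31.2 and 28.2 in wild-type and 28.7 in both knockout samples. By raw Ct, the knockout samples thus lay between the wild-type samples for all 5.

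**Figure D1:**
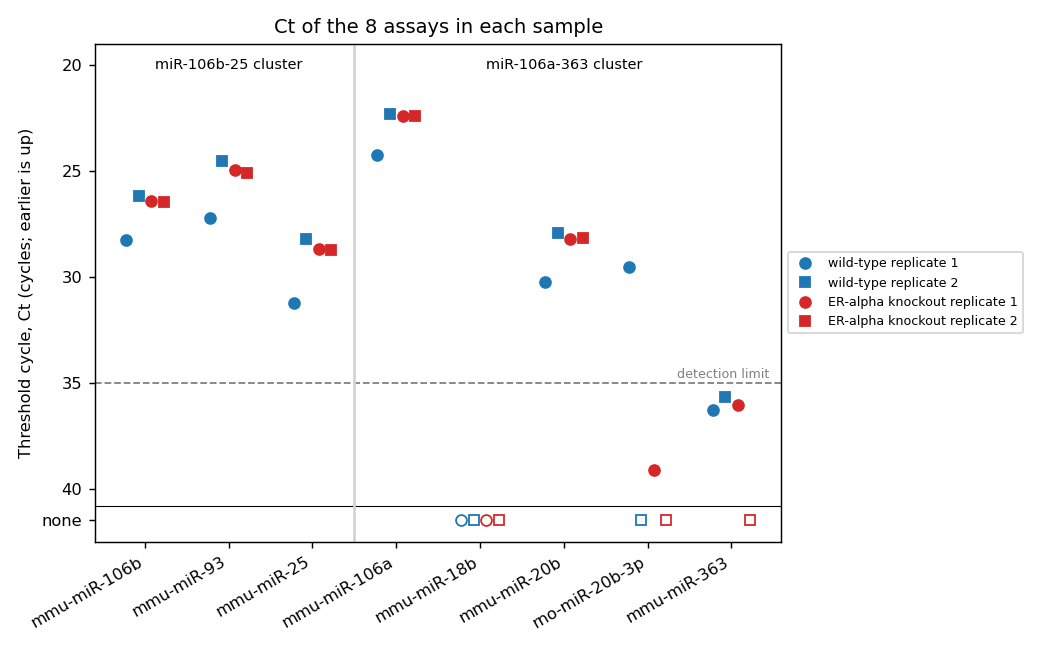
Threshold cycle (y axis, cycles, earlier is up) of the 8 assays in each of the 4 samples; open symbols in the strip marked none are wells without amplification, and the dashed line is the detection limit of Ct 35. Wild-type replicate 1 (blue circles) is the latest sample for the 5 assays detected in all samples, and miR-20b-3p is early in that sample alone.

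Of the assays that missed the limit, mmu-miR-18b amplified in no sample. The mmu-miR-363 well came up at Ct 36.3 and 35.7 in wild-type replicates 1 and 2 and at 36.1 in ER-alpha knockout replicate 1, and did not amplify in knockout replicate 2. These values are all later than the limit of 35 and have no level in the test. The passenger arm, rno-miR-20b-3p, was read at Ct 29.5 in wild-type replicate 1, at 39.1 in ER-alpha knockout replicate 1, and not at all in the other two. In wild-type replicate 1 the passenger arm was therefore earlier than the guide arm miR-20b (30.2), while in the other samples it was absent or far later (39.1 against 28.2). The well of miR-20b-3p lay 0.242 cycles off the whole-cycle values of wild-type replicate 1, whereas its wells of the 5 detected members lay within 0.1 cycle; what lies behind this early Ct was not tested.

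The hairpin of miR-20b from RefSeq, 80 bases with the 5p and 3p arms in capitals, shows the products of both assays.
Mir20b: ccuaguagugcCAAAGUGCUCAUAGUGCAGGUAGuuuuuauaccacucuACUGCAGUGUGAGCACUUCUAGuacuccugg
Both arms come from this 1 hairpin, and in 3 of the 4 samples only the 5p arm was detected.

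The order of the 5 detected members by Ct was the same in each of the 4 samples: miR-106a first, then miR-93, miR-106b, miR-20b and miR-25. By mean Ct over the samples, miR-106a ranked 12th of the 229 tested microRNAs (22.8), miR-93 ranked 50th (25.5), miR-106b 83rd (26.8), miR-20b 126th (28.6) and miR-25 144th (29.2). Without wild-type replicate 1 the ranks were 13, 47, 82, 119 and 135 in the same order. Amplification efficiencies of the assays are not given in the sources used here, so this is an order of Ct values and not of molecule numbers. The closest neighbours were miR-20b and miR-25, with miR-25 later by 0.984 and 0.302 cycles in the wild-type samples and by 0.482 and 0.589 in the knockout samples. In each sample this gap was smaller than the difference of either microRNA between the wild-type samples. The other neighbours were at least 1.02 cycles apart within every sample.

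**Figure D2:**
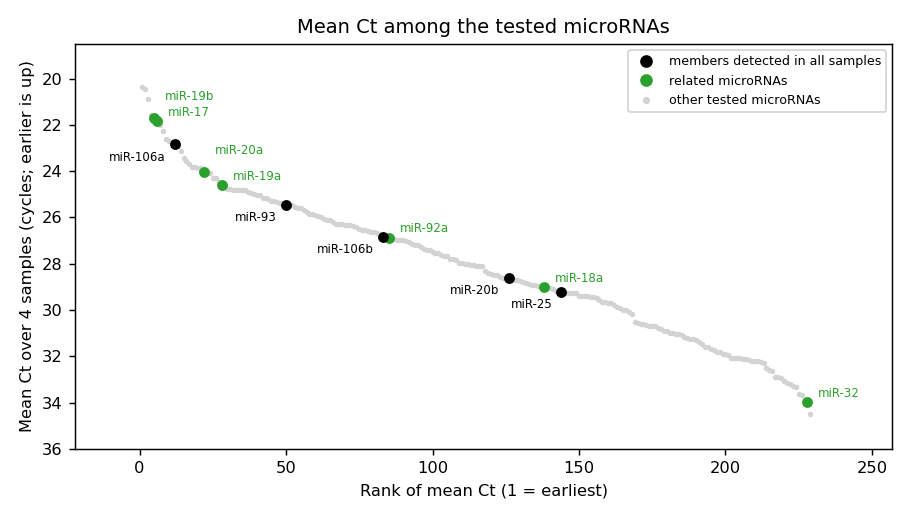
Mean Ct over 4 samples (y axis, cycles, earlier is up) against its rank among the 229 tested microRNAs, with the 5 members detected in all samples in black and the 7 tested related microRNAs in green. The members span ranks 12 to 144, with miR-106a close behind miR-17 and miR-19b, and miR-25 the last of them.

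Knockout and wild-type embryos were compared on a relative level, minus the Ct centred in each sample on the median of the 229 tested microRNAs. Relative levels of miR-106a were 4.998 and 5.07 log2 units in the wild-type samples and 5.78 and 5.41 in the knockout samples, so the groups did not overlap. The log2 fold change was 0.56 with a standard error of 0.64, and its 95% interval ran from -0.69 to 1.81. This difference did not pass the test (limma adjusted p = 0.939 over the 229 microRNAs), and without wild-type replicate 1 it was 0.19.

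Levels of miR-20b, its cluster mate, were -0.99 and -0.54 in the wild-type samples and -0.01 and -0.32 in the knockout samples, again without overlap. The log2 fold change was 0.60, and 0.04 without wild-type replicate 1. For miR-106b the levels were 0.98 and 1.18 in the wild-type samples and 1.77 and 1.34 in the knockout samples, also without overlap, with a log2 fold change of 0.48 and of 0.05 without wild-type replicate 1. Lack of overlap in this direction was common on the panel: both knockout samples lay above both wild-type samples for 33.2% of the 229 microRNAs, and here for 3 of 5. Which members overlapped depended on the scaling, as given below for the controls. The opposite order held for 6.11% of the 229 and for 0 of 5 members.

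The groups overlapped for the other 2 members. Levels of miR-93 were 2.00 and 2.82 in the wild-type samples and 3.25 and 2.71 in the knockout samples, with a log2 fold change of 0.57. Levels of miR-25 were -1.97 and -0.84 in the wild-type samples and -0.49 and -0.90 in the knockout samples, with the largest log2 fold change of the 5, 0.71 (1.63-fold). Without wild-type replicate 1 both changed direction, to -0.17 for miR-93 and -0.19 for miR-25. The latter had a wild-type mean of -1.41 ± 0.80 and a knockout mean of -0.70 ± 0.29 (SD, n = 2 each), so the spread between the wild-type samples was larger than the difference of the groups.

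None of the 5 members passed the test, with a limma adjusted p of 0.939 for each and unadjusted p values from 0.266 to 0.454. On the whole panel, 0% of the 229 microRNAs passed an adjusted p of 0.05 and 4.37% had an unadjusted p under 0.05. All assays share 1 standard error in this fit, since limma's prior degrees of freedom came out as infinite. The intervals of the 5 members reached from -0.77 to 1.96 log2 units, so they include lower as well as higher levels in knockout embryos.

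The 5 fold changes lay close together, between 0.48 and 0.71 with a median of 0.57, and all were above the median of 0.26 over the 229 microRNAs, as 49.8% of the panel were. Set against the median of all assays, the members lay 0.21 to 0.45 higher; control scaling and centring on the average profile move all assays together and leave this offset as it is. Without wild-type replicate 1 the members ranged from -0.19 to 0.19 around a panel median of -0.03, and 3 of 5 lay above it. With quantile normalization 3 of 5 lay above the panel median of 0.05, and miR-106a was at -0.04.

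In raw Ct, the knockout mean was earlier than the wild-type mean by 0.77 (miR-106b) to 1.00 (miR-25) cycles, and against wild-type replicate 2 alone it was later, with differences on the minus-Ct scale of -0.12 (miR-106a) to -0.50 (miR-25). In wild-type replicate 1 the 5 members came up 1.86 (miR-106a), 1.89 (miR-106b), 2.14 (miR-20b), 2.36 (miR-93) and 2.67 (miR-25) cycles later than the mean of the other 3 samples, where the median microRNA came up 1.60 cycles later. Among the other 3 samples each member spanned only 0.125 (miR-106a) to 0.562 (miR-93) cycles, against a median span of 0.573 on the panel. The spans of miR-93 and miR-25 (0.524) were thus close to that median and those of the other 3 members smaller, and all 5 had a delay above the median in wild-type replicate 1.

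**Figure D3:**
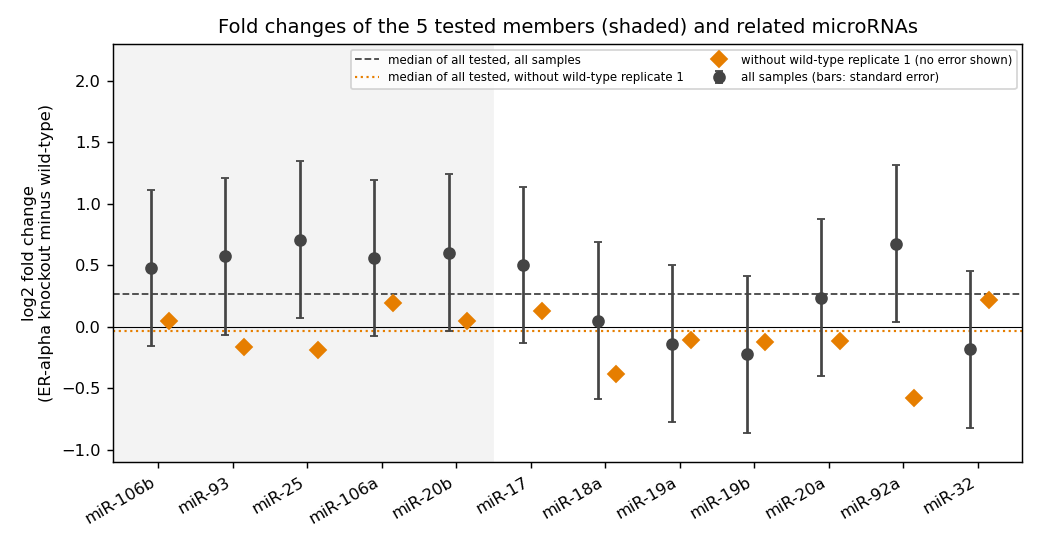
Log2 fold change (y axis, ER-alpha knockout minus wild-type) of the 5 tested members (shaded) and the 7 tested related microRNAs; black points use all samples with the standard error as bars, orange diamonds leave out wild-type replicate 1, and the lines are the medians of all tested microRNAs. The black points of the members lie between 0.48 and 0.71 and the diamonds between -0.19 and 0.19.

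Scaling to the 5 small-RNA controls (U6, U87, Y1 and the small nucleolar RNAs snoRNA135 and snoRNA202) in place of the panel median gave log2 fold changes of 0.76 (miR-106b) to 0.99 (miR-25), beside a panel median of 0.54. The median standard error rose to 0.88, from 0.64. The controls did not move together: knockout minus wild-type Ct was -0.23 for U6, -0.27 for snoRNA135, -0.28 for snoRNA202, 0.14 for U87 and 0.58 for Y1. U87 split by replicate, at 26.3 and 27.8 in wild-type and 26.1 and 28.3 in knockout samples. Relative to the controls, miR-106a stood at 0.37 and 1.88 log2 units in wild-type and 1.88 and 2.04 in knockout samples, and miR-25 at -6.60 and -4.04 in wild-type and -4.38 and -4.28 in knockout samples. Only miR-106a of the members kept its groups apart with this scaling, narrowly (1.877 in wild-type replicate 2, 1.883 in knockout replicate 1). The groups now overlapped for miR-106b, at -3.65 and -2.02 in wild-type and -2.12 and -2.04 in knockout samples. They also did for miR-20b, at -5.62 and -3.74 in wild-type and -3.90 and -3.69 in knockout samples. Against wild-type replicate 2 alone, the knockout mean differed by 0.08 for miR-106a and by -0.30 for miR-25.

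The related microRNAs comprised 9 assays, the miR-17 cluster with the rat-named miR-17-3p and the other AUUGCAC microRNAs on the panel, of which 7 were tested and 0 passed. Their median log2 fold change was 0.05, with 2 of 7 above the panel median of 0.26. These were miR-92a at 0.67, which shares the seed of miR-25, and miR-17 at 0.50, which shares that of miR-106a. At lower values stood miR-20a (0.24), miR-18a (0.05), miR-19a (-0.14), miR-32 (-0.18) and miR-19b (-0.22). Of these, miR-20a also shares the seed of miR-106a and miR-32 that of miR-25, so each seed occurred on both sides of the panel median. Without wild-type replicate 1, miR-17 was at 0.12, miR-92a at -0.58, miR-20a at -0.12, miR-18a at -0.39, miR-19a at -0.11, miR-32 at 0.21 and miR-19b at -0.13, and 2 of 7 lay above the panel median of -0.03. Whether members and related microRNAs differ was not tested, and the medians describe these lists only. The AUUGCAC microRNA miR-367 and the passenger arm miR-17-3p were each amplified in 1 sample, at Ct 36.6 and 36.5.

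Marker microRNAs of several cell types had median log2 fold changes above the panel median of 0.26, like the members. Of 8 blood markers on the panel, all were detected in every sample, with a median log2 fold change of 0.61 and 7 of 8 above the panel median, and with a median of -0.15 without wild-type replicate 1. Their mean relative level was -0.13 log2 units in wild-type replicate 1, 0.49 in wild-type replicate 2, 0.85 in knockout replicate 1 and 0.44 in knockout replicate 2. The median was 0.46 for 4 muscle markers (0.14 without wild-type replicate 1), 0.78 for the 1 liver marker (0.28), 0.43 for 2 endothelial markers (0.21), 0.32 for 6 epithelial markers (-0.08) and -0.23 for 3 neuronal markers (-0.35). Above the panel median were 3 of 4 muscle, 1 of 2 endothelial, 3 of 6 epithelial and 1 of 3 neuronal markers and the liver marker, as were 49.8% of the panel. The part of these cell types in the members' values was not tested.

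Differences between 2 wells of the same sample need no scaling between samples, and 14 pairs were set out this way. The pairs were chosen with the values known, and with 2 samples a group the smallest exact permutation p is 0.333, so no test was made. Within the Mcm7 cluster, miR-25 came up later than miR-93 by 3.98 and 3.66 cycles in wild-type and by 3.74 and 3.62 in knockout samples. The gap from miR-93 to miR-106b was 1.02 and 1.64 cycles in wild-type and 1.48 and 1.37 in knockout samples. The knockout values of both pairs lay near or between the wild-type values. Least steady of the cluster mates was the gap from miR-106b to miR-25, at 2.95 and 2.02 cycles in wild-type and 2.26 and 2.25 in knockout samples (SD 0.406).

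Within the X-linked cluster, miR-20b came up later than miR-106a by 5.99 and 5.61 cycles in wild-type and by 5.79 and 5.73 in knockout samples. Their mature sequences are the pair that differs by A10C and C12U, and their hairpins lie on the same strand within the same cluster. Means of the gap were 5.80 ± 0.27 in wild-type (SD, n = 2) and 5.76 in knockout embryos, a difference of -0.04, which was 0.15 without wild-type replicate 1 and -0.43 with quantile normalization.

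Across clusters, the gap from miR-17 to miR-106a was 1.01 and 1.03 cycles in wild-type and 1.02 and 0.911 in knockout samples. Its SD over the 4 samples was 0.0563 cycles, and 0.222% of all 26106 pairs of tested microRNAs had an SD no larger, where the median pair had 0.614. The sequences of this pair differ at a single base, U10A, and whether either assay also reads the other microRNA was not tested. The gap from miR-17 to miR-106b was as steady, at 5.03 and 4.93 cycles in wild-type and 5.03 and 4.99 in knockout samples (SD 0.0474, at or above that of 0.134% of pairs). Those sequences differ at U1C, G10U and A20G of the 21 bases compared (miR-106b base first). Values of wild-type replicate 1 lie near whole cycles; without it the SD was 0.0671 for miR-106a and miR-17 and 0.0494 for miR-106b and miR-17, no larger in 2.78% and 1.49% of pairs.

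Other counterparts were less steady. The gap from miR-20a to miR-20b, which differ at 2 bases, was 4.98 and 4.58 cycles in wild-type and 4.60 and 4.22 in knockout samples. That from miR-92a to miR-25 was 1.99 and 2.69 cycles in wild-type and 1.86 and 2.75 in knockout samples, with the replicates farther apart than the groups. Over the 14 pairs the knockout mean minus the wild-type mean of the gap ranged from -0.37 (miR-20b minus miR-20a) to 0.10 (miR-106b minus miR-93). Without wild-type replicate 1 it ranged from -0.39 (miR-25 minus miR-92a) to 0.35 (miR-93 minus miR-106a), so other pairs stood at both ends.

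**Figure D4:**
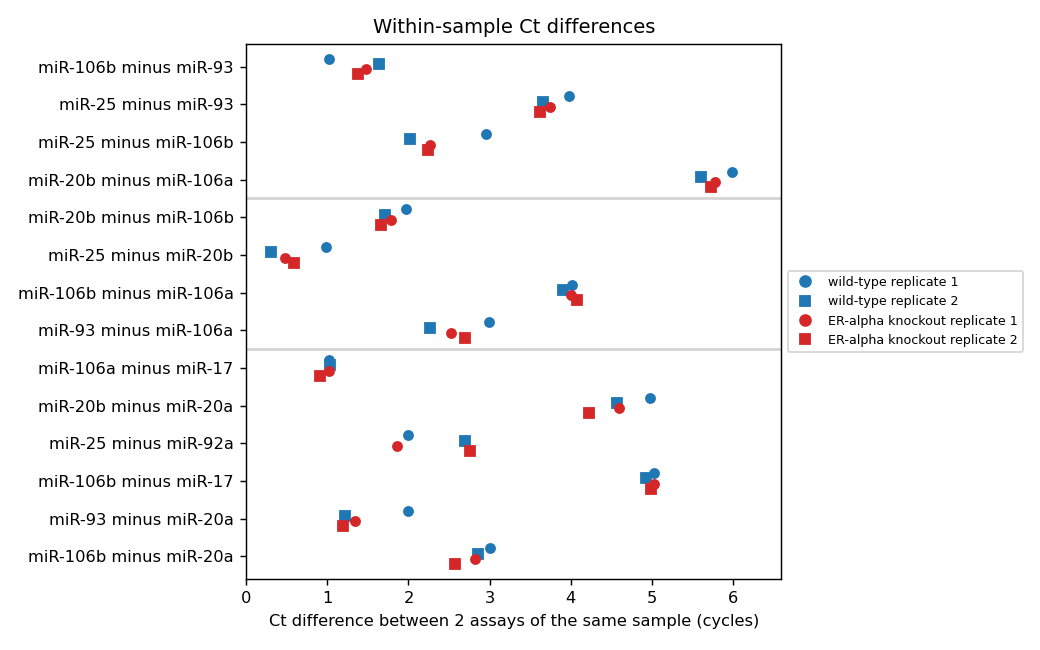
Ct difference between 2 assays of the same sample (x axis, cycles) for 14 pairs (y axis), grouped as mates within a cluster, pairs across the 2 clusters and pairs with miR-17 counterparts; each symbol is 1 sample. Symbols of miR-106a minus miR-17 and miR-106b minus miR-17 nearly coincide, and those of miR-25 minus miR-92a split by replicate.

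The microRNAs most like each member were taken by the Euclidean distance between relative levels over the 4 samples, each set to its own mean. For miR-106a these were miR-146a (0.0646 log2 units), miR-31 (0.0803) and miR-199a-3p (0.0847), where the median microRNA was 0.739 away. For miR-106b they were miR-31 (0.0575), miR-193 (0.0684) and miR-17 (0.0820). The profile of miR-20b lay closest to those of miR-708 (0.0774), miR-126-5p (0.0795) and miR-223 (0.0903). That of miR-93 lay closest to miR-30a (0.125), miR-127 (0.159) and miR-215 (0.179), and that of miR-25 to let-7e (0.153), miR-30e (0.165) and miR-335-3p (0.183). No member was among the 3 nearest of another, and miR-17 was the only related microRNA named. Between members of the 2 clusters, the gaps of miR-25 to miR-106a and of miR-93 to miR-20b were not among the 14 chosen pairs. The gaps between the clusters that were among them were still steadier than the median pair (SD 0.614). Their SD was 0.0730 cycles for miR-106b and miR-106a, 0.136 for miR-20b and miR-106b, 0.289 for miR-25 and miR-20b, and 0.309 for miR-93 and miR-106a. Without wild-type replicate 1 these were 0.0882, 0.0611, 0.145 and 0.223, beside a median of 0.392. The distances rest on 4 samples that include wild-type replicate 1: without it, let-7e ranked 24th and miR-335-3p 34th for miR-25, and miR-127 ranked 25th for miR-93. Of all the neighbours named above, only miR-199a-3p (ranked 2 for miR-106a) then stayed among the nearest 3.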

How the data were processed

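Total RNA was extracted with TRIzol and assayed by TaqMan PCR (7900HT, 40 cycles), per the labels' protocols. Per the file headers, the deposited values are Ct, with 1 well per assay and 4 for U6; the threshold, baseline and any normalization by the authors are not given in the sources used here. The file of wild-type replicate 1 marks no well as undetermined, and its 39 wells at 40.3 were treated as not amplified; its constant of 0.273 was kept. Levels are minus Ct centred on the median of the 229 microRNAs with a Ct of at most 35 in each sample. This takes 1 cycle as a doubling and removes any change of all microRNAs together.

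A two-sided limma fit (version 3.58.1, R 4.3.3, eBayes) with genotype as its single term compared the groups, with Benjamini-Hochberg adjustment over all tested microRNAs. Tables used Python 3.11.15 and pandas 2.3.3, and plots matplotlib 3.10.9. Named microRNAs are the members, the related list, the controls and the 3 nearest profiles of each tested member. Other relatives, such as miR-92b, were not analysed here. Members, lists and pairs were chosen with earlier results of these data known. Alternatives were control scaling, no or quantile normalization, average-profile centring, a Ct limit of 32, no filter with wells without amplification at cycle 40, removal of the constant, ordinary variances, trend and robust settings, the replicate number as a block, and each sample left out with detection and centring redone.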

Additional observations from a re-analysis of the deposited data

How the results depend on the processing

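Among the 5 tested members, 0 passed an adjusted p of 0.05 under every alternative run, and of 35 fold changes under other scaling, filters or the constant removed, with all samples kept, 1 changed direction, that of miR-106a with quantile normalization (-0.044). Several of these scalings shift all assays alike, and the variance settings and the block leave the fold change as it is by construction. With 1 sample left out, 2 of 20 changed direction, miR-25 (-0.19) and miR-93 (-0.17) without wild-type replicate 1; counts past the threshold ranged from 0 to 0. On the panel, 1 microRNA, no member, passed with the replicate number as a replicate block (limma), and 0 in the other fits. Deviations of same-numbered samples correlated at r = 0.37 across 229 assays. The labels leave the meaning of the number unstated and there are only 2 such pairs, so the fit without it was kept. Without wild-type replicate 2, where the wild-type group is replicate 1 alone, the members' log2 fold changes ran from 0.69 (miR-106b) to 1.39 (miR-25), with 1.09 for miR-93. The panel median in that fit was 0.33. With all samples in the same model, 0 members had an unadjusted limma p under 0.05. Of 70 recomputed within-sample gap differences, 9 moved by at least the wild-type SD. Leaving out either wild-type sample cannot move a gap that far, since the SD of 2 values always exceeds the shift from dropping 1 of them. All 9 thus came from quantile normalization or a knockout sample left out. The count therefore does not show how far the gaps depend on wild-type replicate 1. Only 2 samples a group and 1 well per assay limit the precision, and miR-18b, miR-363 and miR-20b-3p have no testable level.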
